A study of Mus musculus with 12 samples.

Results

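A panel of 10 genes that mark endothelial cells, the cells lining blood vessels, were followed through dissected mouse otic vesicles and an otic cell line. The genes were Tie1, Tek, Eng, Pecam1, Sox17, Cdh5, Kdr, Flt1, Esam and Emcn, and every probe set listed with one of them and with no other gene was taken. This gave 10 genes and 16 probe sets, of 18194 genes and 34958 probe sets listed with 1 gene. The otic vesicle is the epithelial sac from which the inner ear forms. Vesicles were dissected at the embryonic stages E10.5 and E10 from embryos labelled Dlx5-null and from wild-type embryos, and dispase was used to help strip adhering mesenchyme. Each vesicle group had 2 arrays, and each array held a separate pool of 4 to 8 vesicles. The 2B1 line, which derives from the otic vesicle and is conditionally immortal, was transiently transfected with Dlx5 or with an empty vector carrying GFP alone, in 2 independent cultures each, and was kept for 4 days at 37 °C without gamma-interferon. Dlx5 encodes a homeodomain transcription factor made in the otic epithelium. The controls share the dissection and dispase step in vesicles and the GFP vector and differentiation step in 2B1 cells. In bulk RNA of this kind, fewer cells of a type and less RNA per cell cannot be told apart.

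Endothelial cells are recognised by receptors, junction proteins and transcription factors that other cells largely lack. Kdr and Flt1 encode receptors of vascular endothelial growth factors (VEGF), with Kdr carrying most of the growth signal and Flt1 acting largely as a trap for the ligand. Tek encodes the receptor of the angiopoietins, and Tie1 encodes a related receptor that modulates it. Eng encodes endoglin, a co-receptor for ligands of the BMP and TGF-beta family. Pecam1, Cdh5 and Esam encode adhesion proteins of the junctions between endothelial cells, Emcn encodes a sialomucin of their surface, and Sox17 encodes a transcription factor used in arterial endothelium and also in endoderm. In the embryo, vessels grow around the otic vesicle in the periotic mesenchyme and carry nucleated primitive red cells.

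Promoter sequences were looked at because transcription factors of the ETS, FOX, SOX and GATA families are known to drive endothelial genes. RefSeq windows on GRCm38.p6, which run from 250 bases before to 50 bases after 1 start site of a gene, were found for 6 of the 10 genes (Tie1, Tek, Eng, Kdr, Flt1 and Emcn). The windows of Tie1 and Eng are shown because these genes were higher at E10.5, and that of Tek because it encodes the sister receptor of Tie1, whose values were not separated by stage. The start used by the window is the outermost start of the RefSeq gene record in Tie1 and Eng, and another start in Tek, Kdr, Flt1 and Emcn. Letters in capitals mark the searched motifs, read on both strands. The Tie1 window lies at chr4:118489800-118490099 on the minus strand, the Eng window at chr2:32646345-32646644 on the plus strand and the Tek window at chr4:94739039-94739338 on the plus strand.
Tie1 promoter: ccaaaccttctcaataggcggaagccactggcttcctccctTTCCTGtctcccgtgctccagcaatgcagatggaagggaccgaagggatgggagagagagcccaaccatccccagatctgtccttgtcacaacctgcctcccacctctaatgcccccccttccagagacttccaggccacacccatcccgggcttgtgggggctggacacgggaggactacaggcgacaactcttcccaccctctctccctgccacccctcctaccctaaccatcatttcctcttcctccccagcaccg
Eng promoter: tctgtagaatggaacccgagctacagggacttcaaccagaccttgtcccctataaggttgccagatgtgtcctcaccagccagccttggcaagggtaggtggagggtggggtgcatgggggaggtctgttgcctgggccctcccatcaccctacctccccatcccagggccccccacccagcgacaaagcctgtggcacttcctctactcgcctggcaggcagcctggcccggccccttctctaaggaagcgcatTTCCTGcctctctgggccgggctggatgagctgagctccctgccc
Tek promoter: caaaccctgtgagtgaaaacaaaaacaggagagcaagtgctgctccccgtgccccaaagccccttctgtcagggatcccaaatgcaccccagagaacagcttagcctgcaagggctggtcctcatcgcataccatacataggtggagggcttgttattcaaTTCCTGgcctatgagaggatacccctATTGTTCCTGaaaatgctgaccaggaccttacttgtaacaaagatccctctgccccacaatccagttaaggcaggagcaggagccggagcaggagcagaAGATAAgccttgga

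The ETS motif CAGGAA, which appears above as its reverse complement TTCCTG, was in 4 of the 6 windows (Tie1, Tek, Eng and Emcn) and in 30.6% of all 32851 windows. Counted from the start its own window uses, it began 209 bases before it in Tie1, 5 bases after it in Eng, and 89 and 59 bases before it in Tek. The SOX motif AACAAT was in Tek and Emcn (10.7% of all windows), and the Tek copy overlapped a copy of the ETS motif. The GATA motif AGATAA was in Tek alone among the 6 (11.2% of all windows), and the longer FOX:ETS motif AACAGGAA, which contains CAGGAA, was in Emcn alone (2.65%). The Kdr and Flt1 windows held none of these searched motifs. Both hold the shorter ETS core GGAA, which was not searched or counted on its own, so the counts given are of CAGGAA only. These are matches of letters in short windows and show no binding.

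All values are log2 expression values as deposited. The vesicle and the 2B1 arrays appeared to have been normalized separately, so levels are compared only within each set. The pair of E10 arrays numbered 1 had a narrower spread of values (SD 2.33 in labelled null and 2.32 in wild type) than the other 6 vesicle arrays (2.38 to 2.47), and the counts and values of stage that moved most without both of them are given in that form too. The Dlx5 probe set went against the labels, at 7.27 to 8.02 in the 4 labelled-null arrays and 6.11 to 6.30 in the 4 wild-type arrays, so that group is called labelled null throughout. Where its probes lie was not examined, and a probe set outside the deleted part checks no label.

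Stage separated 3 of the 10 genes. Tie1, Eng and Pecam1 were higher at E10.5 than at E10 by 2.81-fold, 2.35-fold and 1.96-fold, while no probe set of the other genes passed the test. Of the 16 probe sets, 3 were called higher and 0 lower at a limma adjusted p under 0.05 across all 34958 probe sets, against 4.44% called higher and 4.07% called lower in the whole table. The fit compared 4 arrays at E10.5 with 4 at E10 with genotype as a covariate.

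Tie1 read 6.22 and 5.73 in labelled-null and 6.11 and 6.27 in wild-type vesicles at E10.5, against 4.80 and 4.59 in labelled-null and 4.36 and 4.61 in wild-type vesicles at E10. All 4 arrays of E10.5 lay above all 4 of E10, with the lowest E10.5 array at 5.73 and the highest E10 array at 4.80. The difference was 1.49 (SE 0.15, limma adjusted p = 0.00205), a 95% interval of 2.21-fold to 3.58-fold.

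Eng is measured by 2 probe sets that gave different pictures. Probe set 1432176_a_at read 8.27 and 8.00 in labelled-null and 8.39 and 8.38 in wild-type vesicles at E10.5, against 6.69 and 7.0 in labelled-null and 6.96 and 7.45 in wild-type vesicles at E10. The stages did not overlap, and the difference was 1.24 (SE 0.14, limma adjusted p = 0.00309). Probe set 1417271_a_at read 7.57 and 7.88 in labelled-null and 7.56 and 7.52 in wild-type vesicles at E10.5, against 7.53 and 7.58 in labelled-null and 7.97 and 7.49 in wild-type vesicles at E10. Its stages overlapped throughout, with a difference of -0.01 (95% interval -0.34 to 0.32, limma adjusted p = 0.976). The 2 sets correlated at -0.18 over the 8 vesicle arrays, a description of few points. The call of Eng rests on 1 of its 2 probe sets, and which transcripts each set detects was not examined.

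Pecam1 read 6.53 and 6.48 in labelled-null and 6.93 and 6.62 in wild-type vesicles at E10.5, against 5.49 and 5.61 in labelled-null and 5.85 and 5.72 in wild-type vesicles at E10. Its stages were also separate, and the arrays of a group differed most in wild-type vesicles at E10.5 (SD 0.22). The difference was 0.97 (SE 0.11, limma adjusted p = 0.00309). Groups that did not overlap, with E10.5 above E10 in both genotypes, were found for these 3 of the 16 probe sets and for 12.1% of all probe sets.

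The direction of these 3 genes was the same in each genotype. Within labelled-null vesicles the stage difference was 1.28 for Tie1 (limma adjusted p = 0.0784), 1.29 for Eng (limma adjusted p = 0.0793) and 0.96 for Pecam1 (limma adjusted p = 0.0926). None of them passed there, where 25 of all 34958 probe sets did. Within wild-type vesicles it was 1.71 for Tie1 (limma adjusted p = 0.0258), 1.18 for Eng (limma adjusted p = 0.0521) and 0.99 for Pecam1 (limma adjusted p = 0.0441), where 375 of all probe sets passed. Each contrast had 2 arrays on each side, and both used the spread of all 8 vesicle arrays. The test of a difference between the genotypes is the same interaction as that of the label effect between stages, and it called none of the 16. These single-genotype values were added after seeing the data. Leaving out any 1 of the 8 arrays gave 1.40 to 1.63 for Tie1, 1.15 to 1.34 for Eng and 0.91 to 1.03 for Pecam1, and each remained past the threshold. Without both E10 arrays numbered 1 the values were 1.48, 1.04 and 0.98, again past it.

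**Figure D1:**
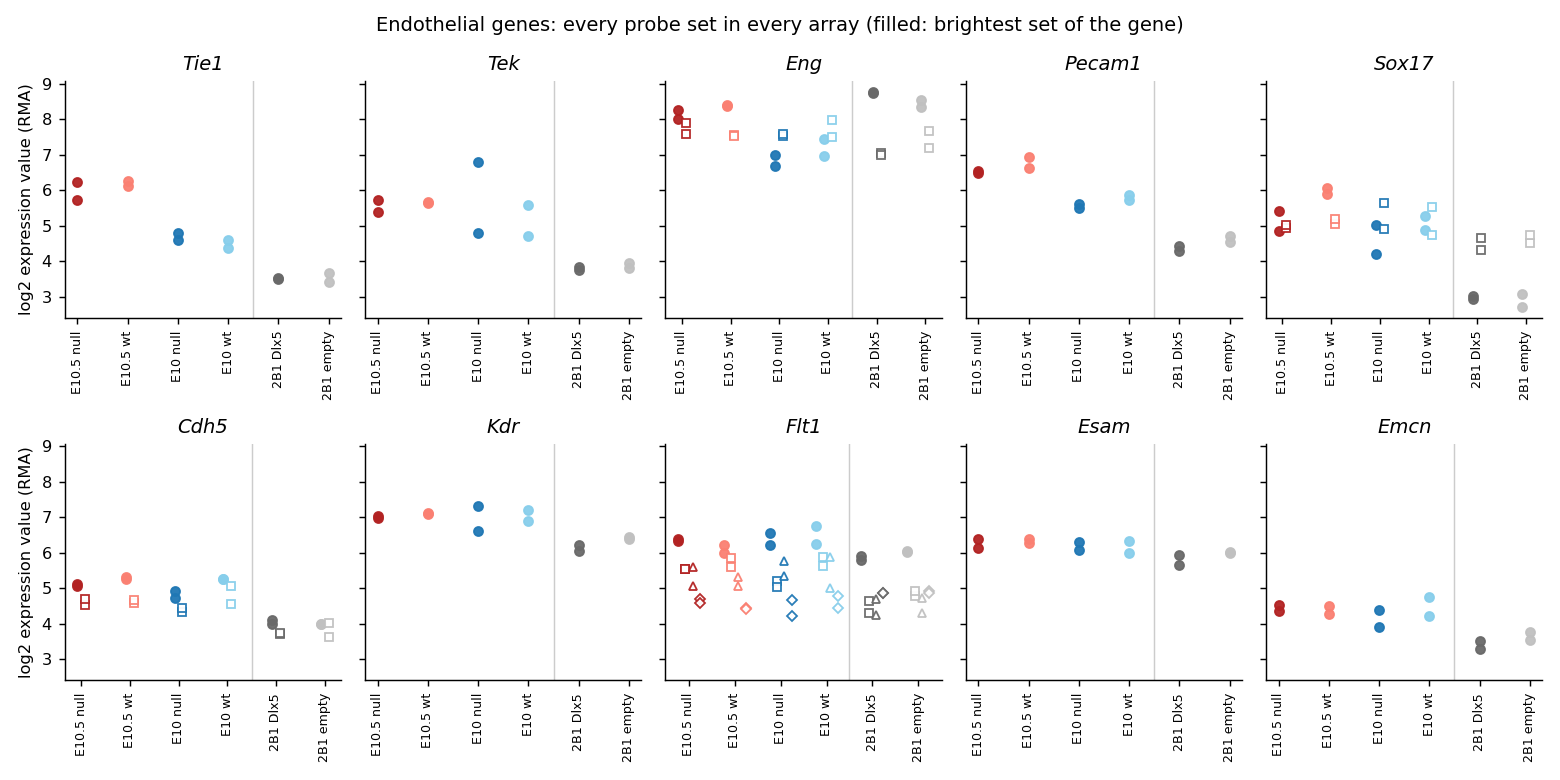
Log2 expression values (vertical axis) of the 16 probe sets in all 12 arrays, 1 panel a gene and 1 point an array, with groups along the horizontal axis (null stands for labelled null, wt for wild type). Filled circles are the brightest probe set of each gene and open symbols its other sets, and the grey line parts the vesicle arrays from the separately normalized 2B1 arrays. Tie1, Pecam1 and the filled set of Eng stand higher at E10.5 than at E10 in both genotypes, while the open set of Eng does not.

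The growth factor receptors of the panel showed no such separation. Kdr read 6.98 and 7.04 in labelled-null and 7.09 and 7.12 in wild-type vesicles at E10.5, against 7.33 and 6.61 in labelled-null and 7.20 and 6.90 in wild-type vesicles at E10. The E10.5 arrays lay inside the E10 range, and the difference was 0.05 (95% interval -0.31 to 0.41). For Flt1, with 4 probe sets, the stage differences were -0.21, 0.20, -0.23 and 0.00, and none passed. As a fold, the interval of Kdr runs from 0.805 to 1.33, so the data leave room for a small change in either direction.

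Tek, the partner of Tie1, varied more between pools than between stages. It read 5.72 and 5.39 in labelled-null and 5.65 and 5.66 in wild-type vesicles at E10.5, against 4.79 and 6.78 in labelled-null and 4.71 and 5.58 in wild-type vesicles at E10. The E10 arrays lay below, among and above the E10.5 arrays, and the labelled-null pools of E10 differed from each other by more than the 2 pools of any other group. The difference was 0.14 (SE 0.39, limma adjusted p = 0.861). Without labelled-null E10 replicate 2 it was 0.61 (limma adjusted p = 0.0791), and without both E10 arrays numbered 1 it was -0.58 (limma adjusted p = 0.229), so no direction can be given for Tek.

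Sox17 again had 2 probe sets. Probe set 1429177_x_at read 5.40 and 4.86 in labelled-null and 6.05 and 5.90 in wild-type vesicles at E10.5, against 4.20 and 5.01 in labelled-null and 5.26 and 4.89 in wild-type vesicles at E10. The wild-type stages were separate and the labelled-null stages overlapped, and the difference of 0.71 (SE 0.21) missed the threshold (limma adjusted p = 0.0663). It passed without labelled-null E10 replicate 2 (0.91, limma adjusted p = 0.00866). The suffix of this probe set marks probes that may also match other transcripts. The other set, 1421657_a_at, gave -0.16 (limma adjusted p = 0.676), so the sets of Sox17 differed in sign.

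No probe set of the remaining surface and junction genes passed the test of stage. The Cdh5 probe set 1433956_at read 5.13 and 5.08 in labelled-null and 5.33 and 5.27 in wild-type vesicles at E10.5, against 4.73 and 4.93 in labelled-null and 5.26 and 5.27 in wild-type vesicles at E10. Here the labelled-null stages were separate and the wild-type stages overlapped, and the difference of 0.16 did not pass. Esam gave 0.13 (95% interval -0.15 to 0.40) and Emcn 0.10, with E10.5 and E10 arrays overlapping in both.

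Read over the panel, 9 of the 10 genes had a stage difference above 0, taking the brightest probe set of each, against 49.7% of all 18194 genes. The median difference of the 10 genes was 0.15, beside 0.0 over all genes with 1 probe set a gene. Over probe sets the median was 0.11 for the 16 and -0.025 for all. Most differences of the 10 genes were smaller than the spread between pools, so the count describes signs and not 9 rises. The panel's mean log2 value was 5.97 to 6.13 in labelled-null and 6.20 to 6.24 in wild-type vesicles at E10.5, against 5.53 to 5.67 in labelled-null and 5.69 to 5.74 in wild-type vesicles at E10.

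**Figure D2:**
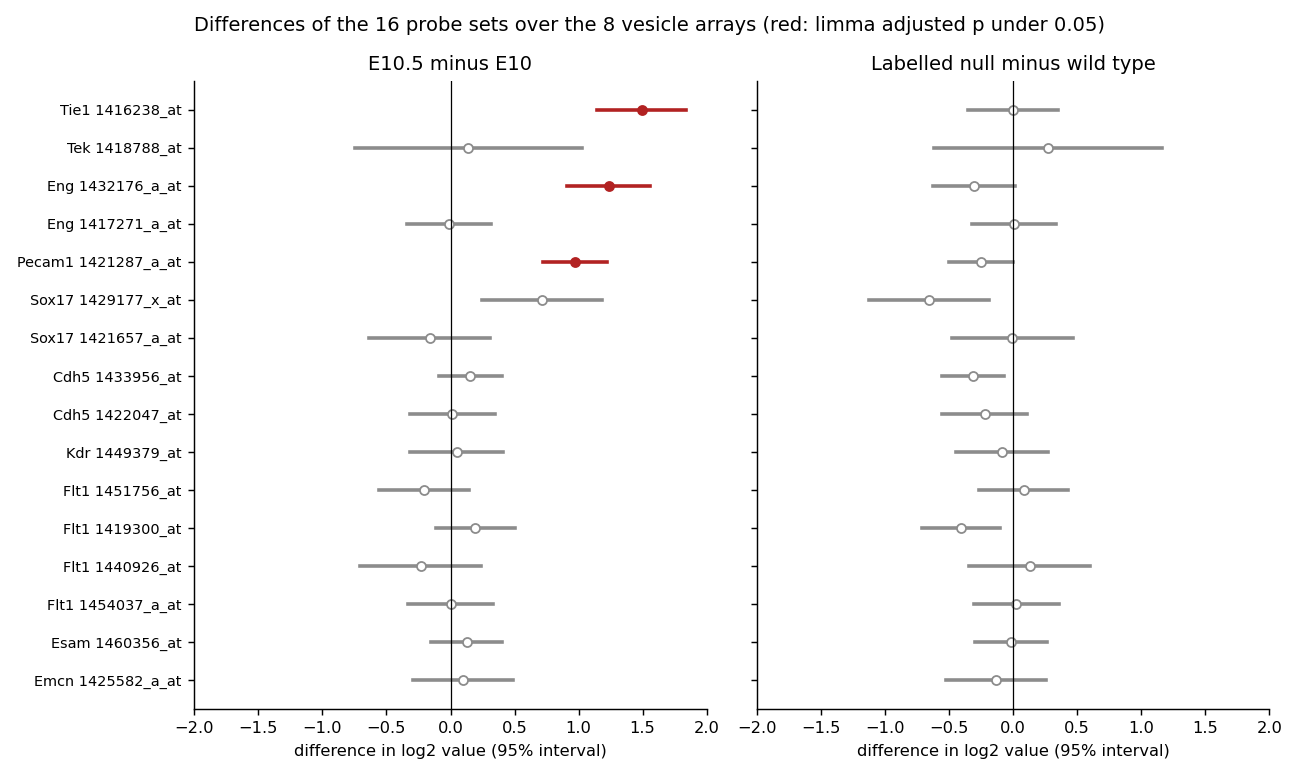
Fitted difference in log2 value (horizontal axis, point) with its 95% interval (line) for each of the 16 probe sets (vertical axis), for stage on the left and for the label on the right, over the 8 vesicle arrays. Red marks a limma adjusted p under 0.05, which Tie1, Pecam1 and 1 set of Eng reached for stage and no set reached for the label.

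Labelled-null and wild-type vesicles were then compared, the contrast at which the series aims. None of the 16 probe sets passed at a limma adjusted p under 0.05 over both stages, where 4 of all 34958 probe sets did (0.0114%). At an unadjusted p under 0.05, 4 of the 16 were lower in labelled-null vesicles and 0 higher, against 2.61% lower and 1.26% higher in the whole table. These were Sox17 1429177_x_at (-0.66, SE 0.21), Flt1 1419300_at (-0.41, SE 0.14), Cdh5 1433956_at (-0.32, SE 0.11) and Pecam1 (-0.25, SE 0.11), each with a limma adjusted p of 0.999. For Pecam1, Cdh5 1433956_at and Flt1 1419300_at the labelled-null arrays lay below the wild-type arrays of their own stage at both stages, which held for 2.68% of all probe sets.

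Flt1 1419300_at read 5.54 and 5.54 in labelled-null against 5.85 and 5.61 in wild-type vesicles at E10.5, and 5.20 and 5.05 in labelled-null against 5.62 and 5.89 in wild-type vesicles at E10. The other 3 probe sets of Flt1 gave 0.08, 0.13 and 0.03, so the lower values were seen with 1 of its 4 sets. Sox17 1421657_a_at likewise gave -0.01, apart from the -0.66 of the other set. Tie1, which separated most by stage, gave a difference of -0.0025 by label (95% interval -0.35 to 0.35, limma adjusted p = 0.999). Fitted by stage, Tie1 gave 0.21 at E10 and -0.215 at E10.5 (SE 0.21 each), neither past the test. Eng 1432176_a_at gave -0.305 (95% interval -0.63 to 0.02) and Tek 0.27 (95% interval -0.62 to 1.16). The other set of Eng, 1417271_a_at, gave 0.005 (95% interval -0.32 to 0.33). The other set of Cdh5, 1422047_at, gave -0.22 (95% interval -0.55 to 0.11).

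The stages were also fitted one at a time. At E10.5 none of the 16 probe sets passed (1 of all sets did, 0.00286%), and at E10 none passed (0%). At an unadjusted p under 0.05 there were 1 member at E10.5, Sox17 1429177_x_at, against 2.71% of all sets, and 2 at E10, Flt1 1419300_at and Cdh5 1433956_at, against 3.22%. The test of whether the label effect differed between the stages called 0 of the 16 and 0% of all sets, with 0 of the 16 at an unadjusted p under 0.05 against 2.11%. Over both stages 8 of the 10 genes were lower in labelled-null vesicles (48.3% of all genes), with a median of -0.11.

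In 2B1 cells, Dlx5-transfected cultures were compared with empty-vector cultures. None of the 16 probe sets passed, and neither did any other set of the table (0%), with adjusted p-values of 0.509 to 0.978 for the members. At an unadjusted p under 0.05, limma counted 0 of the 16, against 9.83% of all sets. Eng 1432176_a_at read 8.75 and 8.77 with Dlx5 and 8.35 and 8.55 with the empty vector, and Eng 1417271_a_at read 7.04 and 6.99 with Dlx5 and 7.67 and 7.19 with the empty vector. The sets of Eng thus stood apart in opposite directions (0.31, SE 0.16, and -0.415, SE 0.20), neither past the test. The median of the 10 genes was -0.14, beside 0.005 over all genes with 1 probe set a gene and 0.01 over all sets. Kdr was 6.22 and 6.06 with Dlx5 and 6.44 and 6.39 with the empty vector. With 2 cultures a side the interval of Kdr ran from -0.64 to 0.09.

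Since levels could not be set across vesicles and cells, each probe set's position within its own array was used instead, given as the percent of all probe sets that were dimmer. Tie1 stood at a median of 41.1% in vesicles (23.6% to 60.3%) and 15.1% in 2B1 cells (11.8% to 17.4%). Pecam1 stood at 57.9% in vesicles (44.8% to 68.7%) and 32.6% in 2B1 cells (30.0% to 35.6%). Tek stood at 49.8% in vesicles and 19.9% in 2B1 cells, and Sox17 1429177_x_at at 39.2% in vesicles and 6.0% in 2B1 cells. In these 4 probe sets, and in Cdh5 1433956_at, Flt1 1440926_at and Emcn, the lowest of the 8 vesicle arrays stood above the highest of the 4 arrays of 2B1 cells.

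Medians of Cdh5 1422047_at (30.8% in vesicles, 18.8% in 2B1 cells), Flt1 1419300_at (47.6%, 36.8%), Kdr (70.6%, 65.1%) and Sox17 1421657_a_at (38.1%, 34.3%) were also lower in 2B1 cells, but with overlapping ranges. A pair of probe sets stood the other way. Eng 1432176_a_at stood at 77.1% in vesicles (67.0% to 81.9%) and higher, at 88.5%, in 2B1 cells (87.6% to 89.0%), and Flt1 1454037_a_at was also higher in 2B1 cells (28.9% in vesicles, 40.0% in 2B1 cells). Esam stood at 60.7% in vesicles and 59.9% in 2B1 cells, and Flt1 1451756_at at 60.7% in vesicles and 60.0% in 2B1 cells, with overlapping ranges. The other set of Eng, 1417271_a_at, stood at 75.3% in vesicles and 75.2% in 2B1 cells, also with overlapping ranges. The higher position of Eng in 2B1 cells was thus seen with 1 of its 2 sets. Detection calls were not used, so how much of a value is signal above background is unknown, and a position is a description with no test.

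**Figure D3:**
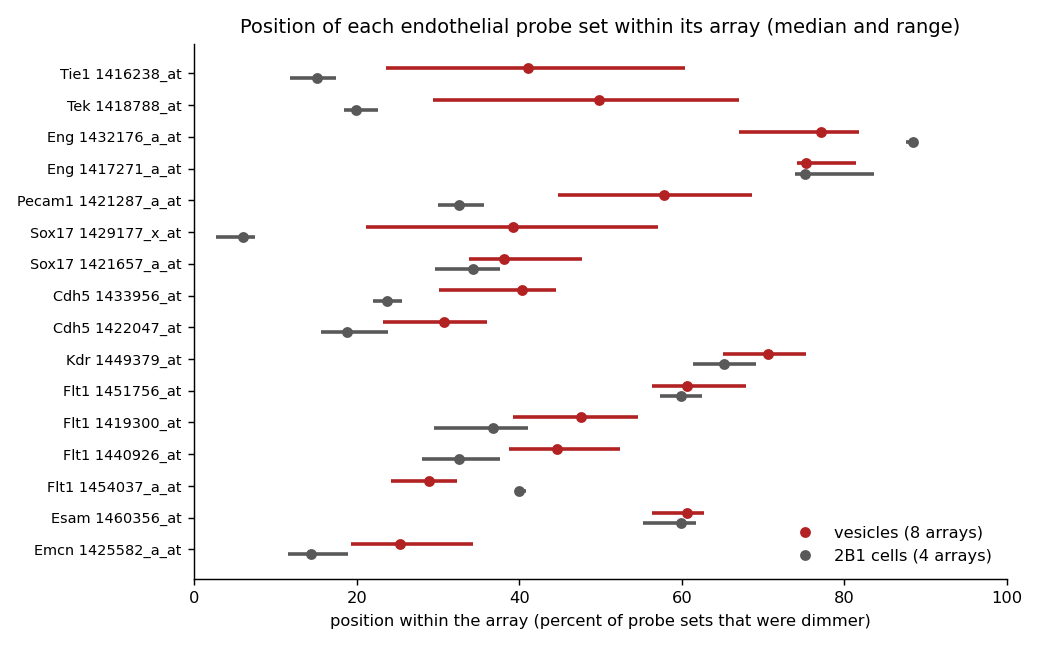
Position of each of the 16 probe sets within its array (horizontal axis, percent of all probe sets that were dimmer), with the median as a point and the lowest to highest array as a line, for the 8 vesicle arrays in red and the 4 arrays of 2B1 cells in grey. Tie1, Tek, Pecam1 and 1 set of Sox17 stand well to the right in vesicles, while 1 set of Eng and 1 of Flt1 stand further right in 2B1 cells.

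Genes around the panel were read from 14 lists of ligands, partners and cell markers, with the brightest probe set of each gene and the stage contrast of all 8 vesicle arrays. On that basis 5.68% of all genes were called higher and 4.17% lower at E10.5. Further endothelial surface and junction genes had 9 of 22 called higher and 1 lower. Mmrn2, which encodes an endothelial matrix protein, rose by 0.97 (SE 0.13, limma adjusted p = 0.00492), and Exoc3l2, an exocyst-like gene of endothelium, rose by 1.02 (SE 0.12, limma adjusted p = 0.0032). Vwf, the clotting factor stored in endothelium and platelets, rose by 1.61 (SE 0.37, limma adjusted p = 0.0312), Arhgef15 by 1.03 (SE 0.25, limma adjusted p = 0.0358), and Podxl, a sialomucin of endothelium and epithelia, fell by 0.57 (SE 0.13, limma adjusted p = 0.0276).

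Of these, Mmrn2 and Exoc3l2 stayed past the threshold with any 1 array left out, while Vwf did in 3 of 8 such fits, Arhgef15 in 4 and Podxl in 2. The count of 9 was 3 without labelled-null E10.5 replicate 1 or wild-type E10.5 replicate 1, 5 without either E10.5 array numbered 2 or labelled-null E10 replicate 1, and 9 without both E10 arrays numbered 1. Where it was 3, the probe sets called higher in the whole table also fell, from 1553 to 460 and 324, so the drop was not particular to this list. Other probe sets of Mmrn2 gave -0.17, 0.28 and 0.41, those of Arhgef15 gave 0.23 and 0.30 and that of Exoc3l2 gave -0.13, none of them past the test. For the other listed genes only the brightest set is given. Of genes named below, Nrp2 has 4 sets in all, Vegfc, Notch4 and Jag1 have 3 each, and Unc5b and Gata2 have 2 each.

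Among VEGF ligands and co-receptors 3 of 8 were called higher and 0 lower. Nrp2, a co-receptor, rose by 1.32 (SE 0.28, limma adjusted p = 0.025), Pgf, a ligand of Flt1, by 1.20 (SE 0.31, limma adjusted p = 0.0444), and Vegfc, a ligand of Flt4 and Kdr, by 0.86 (SE 0.18, limma adjusted p = 0.0242). Nrp2 read 8.19 and 8.09 in labelled-null and 9.71 and 9.69 in wild-type vesicles at E10.5, against 6.69 and 7.73 in labelled-null and 7.52 and 8.48 in wild-type vesicles at E10. The stages were separate within each genotype but overlapped across genotypes. The count was 0 when either labelled-null E10.5 array, wild-type E10.5 replicate 2 or the labelled-null E10 array numbered 1 was left out, and 1 without wild-type E10.5 replicate 1 or without both E10 arrays numbered 1. Vegfa, the main ligand of Kdr, gave -0.20 (SE 0.14, limma adjusted p = 0.443).

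Neither the angiopoietin ligands and TIE partners (0 of 6, median 0.09) nor the endoglin pathway (0 of 12, median 0.08) had a member past the threshold. Among them Dok2, an adaptor of the Tek receptor, gave 0.17 (SE 0.11), Tgfbr2, a receptor of TGF-beta, 0.52 (SE 0.27), and Id1, a target gene of BMP signalling, 0.46 (SE 0.15, limma adjusted p = 0.0983). Without labelled-null E10 replicate 2 the endoglin list had 2 called higher, and with an intensity trend 1. In these settings 3536 and 1841 of all 34958 probe sets were called higher, against 1553 in the main fit. Of 16 endothelial transcription factors 1 was called, Gata2, which rose by 0.94 (SE 0.19, limma adjusted p = 0.0191) and was lost without either wild-type E10.5 array or labelled-null E10.5 replicate 1. Arterial genes had 3 of 11 called higher and 1 lower. Gja4, a connexin gene of arteries, rose by 1.03 (SE 0.16, limma adjusted p = 0.00824) with every single array left out, Notch4 by 1.08 (SE 0.25, limma adjusted p = 0.0331, held in 2 of 8 such fits) and Unc5b by 0.77 (SE 0.13, limma adjusted p = 0.011, held in 6). Jag1, a Notch ligand also used by the otic epithelium, fell by 0.95 (SE 0.18, limma adjusted p = 0.0165, held in 4 of 8). The arterial count of 3 was 1 without either wild-type E10.5 array. Venous and lymphatic genes had 0 of 8 called, with Aplnr at 1.29 (SE 0.40, limma adjusted p = 0.079), but 3 called higher without labelled-null E10 replicate 2 and 1 without both E10 arrays numbered 1.

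Markers of other tissues moved with the same contrast, and their part in the endothelial result was not tested. Erythroid markers had 6 of 10 called higher and 0 lower, with Hba-x, an embryonic globin, 3.35 higher (SE 0.46, limma adjusted p = 0.00518), Slc4a1, a red cell anion exchanger, 2.63 higher (SE 0.46, limma adjusted p = 0.0114) and Hbb-bh1, another embryonic globin, 2.16 higher (SE 0.35, limma adjusted p = 0.00843). The mean of the erythroid list was 9.34 to 9.41 in labelled-null and 8.39 in wild-type vesicles at E10.5, against 7.16 to 7.69 in labelled-null and 7.21 to 7.68 in wild-type vesicles at E10. None of its 10 genes passed the test of the label at E10.5, and all 10 were higher in labelled-null vesicles at E10.5, where 50.8% of all genes were lower.

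Megakaryocyte and platelet markers had 2 of 6 called higher (1 without wild-type E10.5 replicate 2), Pf4 at 1.77 (SE 0.31, limma adjusted p = 0.011) and Ppbp at 0.87 (SE 0.16, limma adjusted p = 0.0129). Periotic mesenchyme markers had 5 of 14 called higher and 0 lower, led by Lum (2.21, SE 0.28, limma adjusted p = 0.0039) and Dcn (1.54, SE 0.11, limma adjusted p = 0.000641), both proteoglycans of connective tissue. The mesenchyme list averaged 6.80 to 6.96 in labelled-null and 7.07 to 7.19 in wild-type vesicles at E10.5, against 6.28 to 6.59 in labelled-null and 6.34 to 6.87 in wild-type vesicles at E10, and its count was 2 without either wild-type E10.5 array and 3 without labelled-null E10 replicate 1. Without both E10 arrays numbered 1 it had 5 called higher and 1 lower. Pericyte and smooth muscle markers had 2 of 11 called higher, Cspg4 at 1.00 (SE 0.15, limma adjusted p = 0.00664) and Notch3 at 0.83 (SE 0.21, limma adjusted p = 0.0453), and 1 when any array other than the E10 arrays numbered 2 was left out, or both E10 arrays numbered 1.

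Macrophage and leukocyte markers had 0 of 12 called (median 0.00) and endoderm markers 0 of 8 (median -0.10). Otic epithelium markers had 3 of 12 called higher and 2 lower, with Oc90, an otoconial matrix gene, 1.59 higher (SE 0.31, limma adjusted p = 0.0167) while Pax8, an early otic transcription factor gene, fell by 1.06 on the log2 scale (SE 0.16, limma adjusted p = 0.00707). The count of 3 was 0 without either wild-type E10.5 array, 1 without the labelled-null array numbered 1 of either stage, 5 when labelled-null E10 replicate 2 was left out, and 2 without both E10 arrays numbered 1. The otic list averaged 8.48 to 8.69 in labelled-null and 8.83 to 8.85 in wild-type vesicles at E10.5, against 8.11 to 8.62 in labelled-null and 8.11 to 8.73 in wild-type vesicles at E10, and 4.82 to 4.92 in 2B1 cells on their own scale. RMA values have no zero, so the absence of a marker cannot be read from them. For the label over both stages, 0 genes of any of the 14 lists passed.

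**Figure D4:**
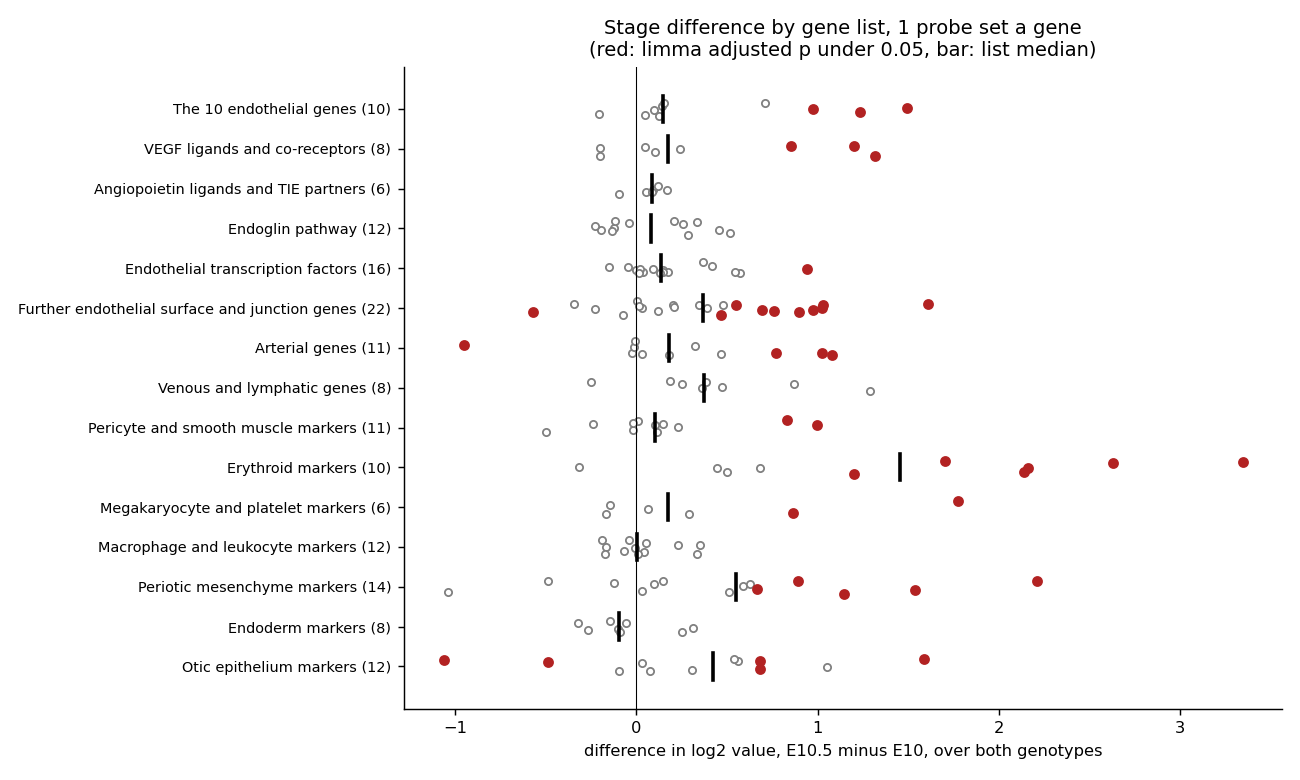
Stage difference in log2 value, E10.5 minus E10 over both genotypes (horizontal axis), of the 10 endothelial genes and of each gene of the 14 lists (vertical axis, number of measured genes in brackets), with 1 probe set a gene. Red points passed a limma adjusted p under 0.05 and black bars are list medians. Erythroid and mesenchyme lists reach as far right as 3.35 and 2.21, beyond Tie1 at 1.49.

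Members of the panel did not all vary together. Over the 8 vesicle arrays, which share their stages and pools, the 45 pairs of genes had a median Pearson correlation of 0.22, from -0.91 for Kdr and Tek to 0.95 for Pecam1 and Eng. Tie1 correlated at 0.93 with Eng and at 0.91 with Pecam1. Against the mean of the other 9 genes, Pecam1 (0.93), Eng (0.85) and Tie1 (0.78) followed the panel most, while Tek gave -0.34 and Flt1 -0.50. All of these describe 8 points and carry no test.

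Outside the panel, the genes most like its mean standardised value over the 8 vesicle arrays were sought among 9095 genes above the median level. The 10 with the highest Pearson r were Mmrn2 (0.976), Tln1 (0.970), Mau2 (0.966), Exoc3l2 (0.966), Hyi (0.963), Gm13889 (0.960), Tspyl2 (0.955), Gfod2 (0.953), St7 (0.948) and Pttg1 (0.947). Mmrn2 and Exoc3l2 are the 2 of these that belong to a list of endothelial genes. Mmrn2 read 7.95 and 7.58 in labelled-null and 8.00 and 8.00 in wild-type vesicles at E10.5, against 6.92 and 6.57 in labelled-null and 7.14 and 7.01 in wild-type vesicles at E10. It was separate between the stages in both genotypes. The panel's mean standardised value was itself separate by stage over these same arrays. Genes picked for likeness to it will tend to be so too, and the separation of Mmrn2 is no further result.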

How the data were processed

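Each of the 12 samples was measured on 1 Affymetrix mouse array. The deposited values are log2 expression values of 45101 probe sets, made by the authors with RMA in Affymetrix Expression Console, per the submitters' processing notes. No version is given in the sources used here. Because RMA adjusts for background and forces arrays to 1 distribution, differences of dim probe sets are compressed. Vesicle arrays had means of 6.10 to 6.11 and 2B1 arrays of 5.76 to 5.82. Signal over background, scan batches and probe positions were not examined, since no scanner files were used here.

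Groups and replicate numbers came from the sample titles. Per the labels, vesicles had 10 to 15 minutes in 1 mg/ml dispase, and 2B1 cells were grown at 32 °C with gamma-interferon before transfection. Only the 34958 probe sets annotated to a single gene were tested, with no filter on level, leaving out 932 with several genes and 9211 with none. A RefSeq gene table gave current symbols (34754 by gene identifier, 1 by accession, 203 kept as listed).

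Differences were fitted with limma 3.58.1 (lmFit and eBayes) in R 4.3.3 and adjusted by Benjamini-Hochberg over all 34958 probe sets, with a threshold of 0.05. Stage and label over both stages were fitted with each other as covariate (5 residual degrees of freedom), the contrasts within a stage or genotype from the 4 group means (4 residual degrees of freedom). The 4 arrays of 2B1 cells were fitted on their own (2 residual degrees of freedom). The vesicle contrasts share arrays. The fit was also run on simulated data with independent noise in each array. Such data cannot show how deviations shared between arrays affect the calls. With 2 arrays a group, array number limits the precision.

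Named genes were the 10 members, Dlx5, up to 4 members a list (those past the threshold first, then by size) and the 10 genes most like the panel. Vegfa was chosen after its value was seen. The members and lists were chosen with earlier results of these data known. Alternatives were a filter on the lowest 25%, 1 probe set a gene, all probe sets, an intensity trend, median-centred arrays, a replicate block, stage arrays alone, and leaving out arrays. The labels do not say that a replicate number marks a shared litter or batch, so the block is an alternative only.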

Additional observations from a re-analysis of the deposited data

How the results depend on the processing

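Of the counts of members past the threshold, 89 of 90 were rated the same under the alternatives run, a rating that let 3 become 2 or 4. Every comparison but stage had a count of 0 that stayed at 0, so the 89 say little about the stage calls. Of the values of single probe sets, 1362 of 1367 kept their side of the threshold (4 were no longer past it, 1 newly was). For stage the count was 3 to 4 with single arrays left out. It was 0 in the contrast within labelled-null vesicles and 2 in that within wild-type vesicles (Tie1 and Pecam1). Both contrasts used the spread of all 8 vesicle arrays, so they are not separate fits of 1 genotype. With a replicate block the stage count was 3 (limma adjusted p = 0.00569 for Tie1, 0.0107 for Eng and 0.0113 for Pecam1), and the block changed no other call of a member. For stage, that block joined same-numbered arrays of E10.5 and E10 within a genotype. It does not account for deviations shared between the genotypes at E10, so it is no check on them. Deviations of same-numbered arrays correlated at 0.66 between the genotypes at E10, but at 0.03 between them at E10.5, at -0.36 and -0.06 between the stages and at -0.10 in 2B1 cells, so the numbers were not taken to pair all samples.

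Medians of the 10 genes moved more. For stage the median of 0.148 became 0.426 with the lowest 25% of genes left out (8 of the 10 genes remained), 0.284 without both E10 arrays numbered 1, 0.29 in the contrast within labelled-null vesicles, 0.342 in that within wild-type vesicles and 0.163 to 0.392 with single arrays left out. For the label over both stages it was -0.188 without both E10 arrays numbered 1 and -0.211 to -0.103 with single arrays left out, at E10 -0.065 and -0.202 to -0.05, and at E10.5 -0.242 to -0.112 with single arrays left out. The median difference between the label effects of the stages, -0.025, ranged from -0.132 to 0.105 and reversed when labelled-null E10 replicate 2 (0.105), the wild-type E10 array numbered 2 (0.048) or the wild-type E10.5 array numbered 1 (0.043) was left out. In 2B1 cells the median was -0.2 with the lowest 25% of probe sets left out and -0.17 to -0.085 with single arrays left out. The cause of these moves was not tested.

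Over the whole table the stage calls, 2975, were 1885 with median-centred arrays, 1894 with the replicate block, 25 in the contrast within labelled-null and 375 in that within wild-type vesicles, and 733 (without wild-type E10.5 replicate 1) to 5475 (without labelled-null E10 replicate 2) with single arrays left out. The label calls, 4, were 0 to 15 with single arrays left out, 23 with the block and 32 without both E10 arrays numbered 1. At E10.5 the 1 call became 0 to 9 with single arrays left out, 11 with the block and 42 with that stage alone, and at E10 the 0 calls became 0 to 2 and, without both E10 arrays numbered 1, 5. In 2B1 cells, numbers crossed between the groups gave 0 calls and 3384 sets at an unadjusted p under 0.05, against 3435 in the plain fit.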
